A study of Homo sapiens with 8 samples.

Results

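The ERBB receptors are a family of 4 cell-surface tyrosine kinases, and the genes examined here are all 4 receptor genes, 5 genes of their ligands and ERRFI1, an inhibitor of the receptors. They were picked by name from the deposited expression table, and all 10 names were found among its 57773 genes. Expression was measured by RNA sequencing in the established breast cancer line ZR-75-1, human cells that carry estrogen and androgen receptors. All cells were kept without steroids for 72 h and then received 10 nM estradiol (E2) for 4 h. In the E2+DHT group (n = 4 libraries) 10 nM dihydrotestosterone (DHT), a potent androgen, was added together with E2, and the E2 group (n = 4 libraries) had E2 alone. Every group therefore carries E2, and what E2 itself does to these genes was not measured.

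Ligand binding lets ERBB receptors pair, phosphorylate each other's tails and start the RAS-MAPK and PI3K-AKT relays. EGFR and ERBB4 bind ligands and are active kinases, ERBB2 has no known ligand and serves as the favoured partner, and ERBB3 binds ligands but has a weak kinase and docks PI3K. The ligands are made as membrane-bound precursors that proteases release. In breast tissue the family is known for ERBB2-driven tumours and for amphiregulin (AREG), an estrogen-induced growth factor of the developing gland.

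The record titles and the library names give different treatments for 4 of the 8 records, and groups were taken from the library names, which head the columns of values. Read that way, the passage labels are 9 and 11 for E2+DHT and 8 and 10 for E2, so that passage and treatment cannot be told apart. With groups from the record titles, each treatment instead holds passages 8, 9, 10 and 11. In each treatment of the library names, replicates 1 and 3 share a passage label, and so do replicates 2 and 4. Separate cultures are not stated for libraries of the same passage, so the p-values may rest in part on technical spread. RNA came from whole cultures, in which fewer cells with a transcript and less of it per cell cannot be told apart. Depth, the read total behind the scaling, was 19599217 to 34616639 reads per E2+DHT library and 19955045 to 31913885 reads per E2 library. Of these reads 83.2% to 84.8% in E2+DHT and 78.3% to 83.7% in E2 lay in the exons of the table. Markers of luminal epithelial cells were expressed, and whether the cells are ZR-75-1 cannot be read from such markers. The 10 luminal markers summed to 2259.7 to 2560.1 RPKM in E2+DHT and 1865 to 2572 RPKM in E2. KRT19, KRT8, KRT18 and XBP1 made up most of this sum. GATA3 and ESR1, also among the 10, averaged 21.97 and 6.17 RPKM over the 8 libraries. Of the basal markers ITGB4 was at 9.17 RPKM while CAV1, KRT5, KRT14, KRT17 and TP63 were each at 0.0548 RPKM or less in every library. Immune markers summed to at most 0.774 RPKM in E2+DHT and 0.483 RPKM in E2, endothelial markers to at most 0.106 RPKM in E2+DHT and 0.125 RPKM in E2, and fibroblast markers to at most 1.31 RPKM in E2+DHT and 1.10 RPKM in E2.

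None of the ERBB genes passed the test for a difference between E2+DHT and E2. ERBB2 and ERBB3 were the most abundant receptors in every library, TGFA was the most abundant of the 5 ligands, and AREG, HBEGF and EREG were near the limit of what these libraries measure. EGF, a ligand that is not among the 5, was above TGFA in every library. The difference with the smallest p was that of TGFA, whose mean in E2+DHT was 1.19 times that in E2, and it did not pass. For ERBB2 and ERBB3 the SD among libraries of 1 treatment was larger than the difference between the treatment means, and both genes were high and low in much the same libraries.

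Of the 10 genes 7 had a mean of at least 0.5 RPKM over the 8 libraries, the minimum for the test. RPKM divides reads by exon length and by the read total of the library, so that levels can be set side by side between genes. The test was limma on log2(RPKM + 0.5), two-sided, with Benjamini-Hochberg adjustment over 11375 genes and a threshold of 0.05. With it 0 of the 7 passed, beside 21 genes, or 0.185% of all tested (20 higher, 0.176%, and 1 lower, 0.00879%). After equalising the summed RPKM of the libraries, 18 genes were higher and 4 lower. At an unadjusted p under 0.05 there was 1 of 7, TGFA, beside 4.47% of all tested genes. On reads recovered from the RPKM values, limma voom likewise had 0 of the 7 past the threshold and 1 at an unadjusted p under 0.05, while 27 of all tested genes passed. The groups overlapped in all 7, and 3.4% of all tested genes had groups that did not overlap (1.98% higher and 1.42% lower in E2+DHT). The median log2 fold change of the 7 was 0.026 and that of all tested genes 0.014.

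**Figure D1:**
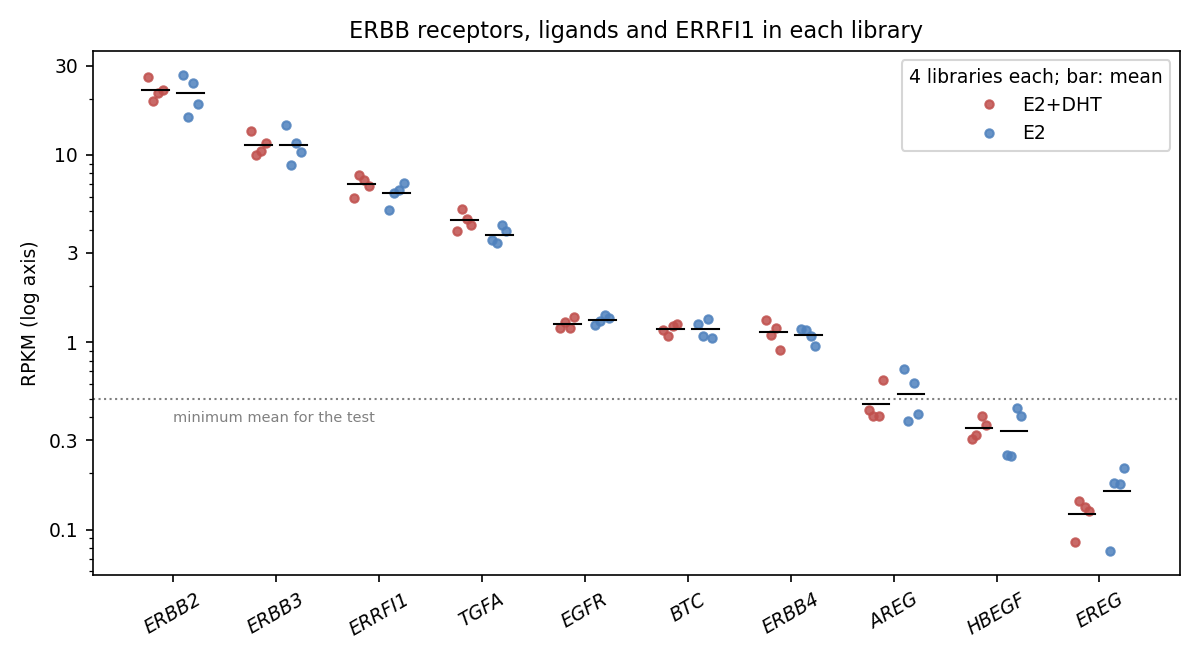
RPKM of each gene (log axis) in the 4 E2+DHT libraries (red, left) and the 4 E2 libraries (blue, right), with bars at the group means. The genes span from ERBB2, at 15.9 to 26.8 RPKM, to EREG, at 0.0767 to 0.214 RPKM, and the groups overlap in every gene.

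The start regions of 9 of the 10 genes, all but ERBB3, were matched by symbol in a table of RefSeq promoters (build GRCh38.p14, 250 bases before to 50 after an annotated start), which holds 11 such windows for them. The letters AGAACA, a half-site of the androgen response element, were searched on both strands, TGTTCT being the other strand. They occur in 1 window each of ERBB2, ERBB4, EGFR and TGFA, and in 14.8% of all 35116 windows. These 4 are shown because they hold the androgen half-site in genes whose expression did not pass the test, in lower case with the half-site in capitals. For TGFA and EGFR the table lists a further start, upstream of the one shown, and its window does not hold these letters. These upstream windows are chr2:70553777-70554076 for TGFA and chr7:55018767-55019066 for EGFR. The windows shown are chr17:39687844-39688143 on the plus strand for ERBB2, chr2:212538753-212539052 on the minus strand for ERBB4, chr7:55109589-55109888 on the plus strand for EGFR and chr2:70553397-70553696 on the minus strand for TGFA.
ERBB2: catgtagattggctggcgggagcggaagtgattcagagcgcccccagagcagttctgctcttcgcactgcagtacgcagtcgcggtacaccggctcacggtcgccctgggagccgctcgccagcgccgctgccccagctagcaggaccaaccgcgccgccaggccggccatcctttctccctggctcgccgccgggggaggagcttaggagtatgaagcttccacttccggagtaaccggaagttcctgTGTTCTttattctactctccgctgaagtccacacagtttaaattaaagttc
ERBB4: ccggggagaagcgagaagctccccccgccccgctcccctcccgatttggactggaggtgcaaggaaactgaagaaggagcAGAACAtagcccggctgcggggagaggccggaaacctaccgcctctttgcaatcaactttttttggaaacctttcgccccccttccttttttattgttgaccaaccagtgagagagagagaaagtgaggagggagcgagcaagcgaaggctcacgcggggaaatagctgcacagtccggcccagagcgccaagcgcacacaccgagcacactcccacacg
EGFR: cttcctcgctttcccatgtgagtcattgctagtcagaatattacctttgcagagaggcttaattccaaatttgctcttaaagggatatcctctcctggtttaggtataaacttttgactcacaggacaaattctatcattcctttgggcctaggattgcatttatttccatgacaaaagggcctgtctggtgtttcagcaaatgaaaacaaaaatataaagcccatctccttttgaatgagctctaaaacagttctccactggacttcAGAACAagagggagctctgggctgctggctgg
TGFA: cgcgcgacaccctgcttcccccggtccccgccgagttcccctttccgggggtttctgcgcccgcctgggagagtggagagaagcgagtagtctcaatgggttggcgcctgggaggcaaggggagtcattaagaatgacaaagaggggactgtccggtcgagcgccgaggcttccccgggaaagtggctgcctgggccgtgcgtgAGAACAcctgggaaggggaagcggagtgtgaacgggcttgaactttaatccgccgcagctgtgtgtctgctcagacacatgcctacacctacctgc
The half-site begins 170 bases before the annotated start in ERBB4, 46 bases before it in TGFA, 1 base before it in ERBB2 and 18 bases after it in EGFR. In TGFA and EGFR that start is the downstream one. The full androgen element, AGAACA and TGTTC with 3 bases between them, was in 0 of the 11 windows and in 0.0114% of all windows. The full estrogen element, GGTCA and TGACC with 3 bases between them, was in 0 of the 11 and in 0.0570% of all. The estrogen half-site AGGTCA was in 1 window each of EREG and HBEGF (13.8% of all windows). A match in letters is not a binding site, and 300 bases hold only a small part of a gene's control region.

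ERBB2 (chromosome 17, 37844167 to 37886679 on hg19, as are all positions of genes given here) was the most abundant of the 10 genes. Its values were 26.1, 19.4, 21.5 and 22.2 RPKM in E2+DHT replicates 1 to 4, against 26.8, 15.9, 24.2 and 18.8 RPKM in E2 replicates 1 to 4. Replicate 1 was the highest and replicate 2 the lowest in both treatments, and the E2 values enclosed all those of E2+DHT. The mean was 22.3 ± 2.79 RPKM in E2+DHT and 21.4 ± 4.97 RPKM in E2 (SD, n = 4 each). The log2 fold change was 0.077 with a standard error of 0.15 and a 95% interval of -0.27 to 0.42 (limma adjusted p = 0.999). MIEN1 and PGAP3 lie on the opposite strand and overlap the ends of ERBB2 by 1931 and 8884 bases. The use of strand in counting is not given in the sources used here, and reads in the overlaps cannot then be assigned for certain.

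ERBB3 (chromosome 12, 56473641 to 56497289), the PI3K-docking partner of ERBB2, had 13.3, 9.96, 10.4 and 11.6 RPKM in E2+DHT, against 14.4, 8.85, 11.6 and 10.4 RPKM in E2. Here too replicate 1 was the highest and replicate 2 the lowest in each treatment. The mean was 11.3 RPKM in both groups, with an SD of 1.503 in E2+DHT and 2.33 in E2 (n = 4 each). E2+DHT over E2 gave a log2 fold change of 0.015 with an interval of -0.29 to 0.32 (limma adjusted p = 1.000).

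EGFR (chromosome 7, 55086714 to 55324313), the receptor of EGF, TGFA and AREG, had 1.19, 1.28, 1.19 and 1.37 RPKM in E2+DHT, against 1.24, 1.30, 1.40 and 1.35 RPKM in E2. All 8 values lay close together, the highest being 1.18 times the lowest, and the groups overlapped. These values rest on 325 to 565 reads per E2+DHT library and 357 to 511 reads per E2 library. Its log2 fold change was -0.053 with an interval of -0.21 to 0.098 (limma adjusted p = 0.999). ERBB2 stood at 15.1 to 21.98 times the EGFR level in E2+DHT and at 12.2 to 21.7 times in E2. EGFR-AS1, an antisense gene that overlaps EGFR, is listed at 0 in every library.

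ERBB4 (chromosome 2, 212240446 to 213403565), a neuregulin receptor with an active kinase, had 1.32, 1.10, 1.20 and 0.906 RPKM in E2+DHT, against 1.18, 1.17, 1.08 and 0.954 RPKM in E2. Replicate 4 was the lowest in both treatments, whereas in ERBB2 and ERBB3 replicate 4 was in neither treatment the lowest. A log2 fold change of 0.026 was fitted, with an interval of -0.18 to 0.23 (limma adjusted p = 0.999).

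The 4 receptors together came to 36.01 ± 4.33 RPKM in E2+DHT and 35.1 ± 7.24 RPKM in E2 (SD, n = 4 each). The shares of ERBB2 and ERBB3 varied less, relative to their means, than the sum did. Together they make up most of the sum, so a smaller spread of their shares is in part built into the division. ERBB2 made up 61.9% ± 0.677 of the sum in E2+DHT and 60.7% ± 2.09 in E2. ERBB3 made up 31.4% ± 0.742 in E2+DHT and 32.2% ± 1.28 in E2. EGFR and ERBB4 made up 2.51% to 4.04% each in E2+DHT and 2.71% to 4.77% each in E2. The ratio of ERBB2 to ERBB3 was 1.95, 1.95, 2.06 and 1.92 in E2+DHT, against 1.87, 1.80, 2.08 and 1.80 in E2. Over the 8 libraries ERBB2 itself ranged 1.69-fold, its ratio to ERBB3 only between 1.80 and 2.08.

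**Figure D2:**
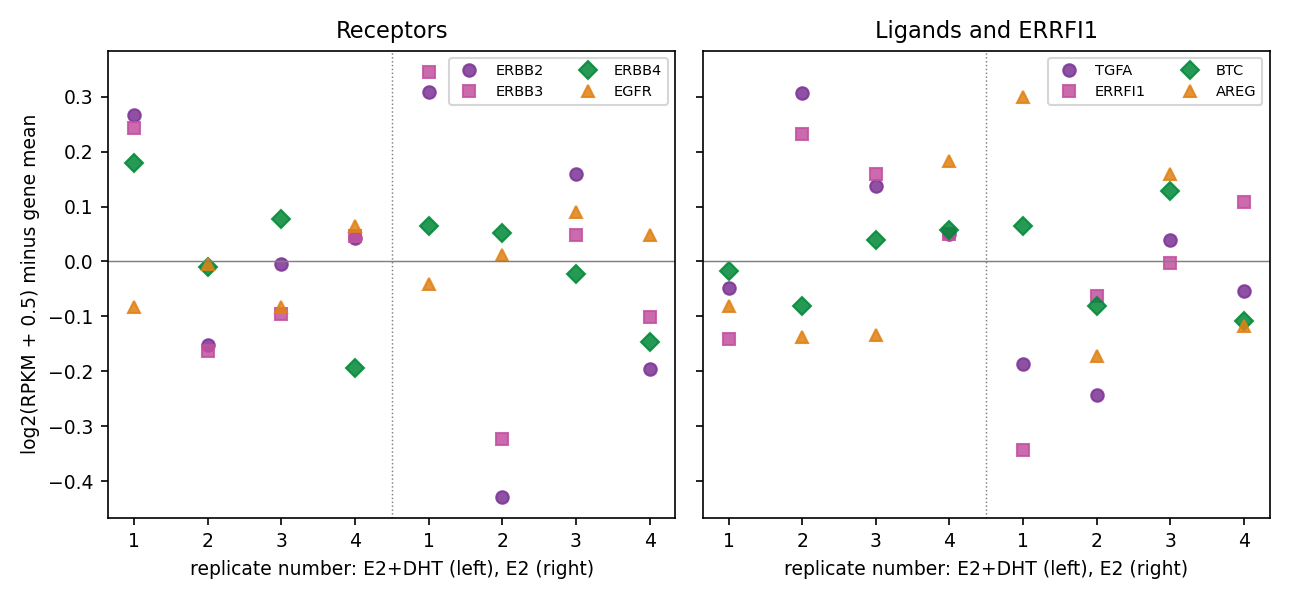
log2(RPKM + 0.5) minus the gene's mean over the 8 libraries, for each replicate number in E2+DHT (left of the dotted line) and E2 (right of it), receptors in the left panel and 3 ligands with ERRFI1 in the right panel. ERBB2 and ERBB3 lie close together in every library, from 0.31 and 0.35 in E2 replicate 1 to -0.43 and -0.32 in E2 replicate 2.

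The shared movement of ERBB2 and ERBB3 over libraries was described by the root mean square difference of their log2 values, each centred on the gene's mean over the 8 libraries. It was 0.073, the smallest of the 21 pairs among the 7 tested genes, where the median tested gene stood 0.22 from ERBB2. Many other genes followed ERBB2 as closely, 281 of them more closely than ERBB3. The nearest were LGALS3BP, a secreted glycoprotein (0.027), SLC25A6, a mitochondrial nucleotide carrier (0.028), and MAP3K11, a kinase (0.030). Among the genes nearest to ERBB3 were ACOT2, a thioesterase (0.038), and MPST, a sulfurtransferase (0.039). In E2 the 2 libraries lowest in ERBB2, replicates 2 and 4, also had the lowest share of reads in exons, 78.3% and 80.05%. In E2+DHT the library lowest in ERBB2, replicate 2, had 84.5%, second to the 84.8% of replicate 3, and the part of exon share in the movement was not tested. After equalising the summed RPKM of the libraries, the log2 fold change of ERBB2 was 0.0014 and that of ERBB3 -0.059, and neither passed.

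Of the ERBB2 neighbours on chromosome 17, ORMDL3, a regulator of sphingolipid synthesis picked out after its values were seen, was near the level of ERBB2, with 17.9 to 23.9 RPKM in E2+DHT and 17.1 to 24.2 RPKM in E2. The other 12 neighbours were below ERBB2 in every library. MIEN1, which overlaps the end of ERBB2 on the other strand, averaged 7.499 ± 0.780 RPKM in E2+DHT and 7.04 ± 1.41 RPKM in E2 (SD, n = 4 each). ERBB2 stood at 2.81 to 3.05 times MIEN1 in E2+DHT and at 2.78 to 3.16 times in E2. GRB7, an adaptor of ERBB receptors often gained together with ERBB2 in tumours, averaged 3.42 ± 0.410 RPKM in E2+DHT and 3.20 ± 0.634 RPKM in E2. Of 13 neighbours 7 were tested and 0 passed (median log2 fold change 0.092, 0 of 7 at an unadjusted p under 0.05). The largest difference up was in STARD3, a cholesterol-binding endosomal protein (log2 fold change 0.12), and the largest down in GSDMB, a gasdermin (-0.14). GSDMB was at 0.681 to 0.773 RPKM in E2+DHT and 0.792 to 0.990 RPKM in E2, and did not pass (limma adjusted p = 0.999).

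TGFA (chromosome 2, 70674412 to 70781325), a ligand of EGFR, was the most abundant of the 5 ligands. It had 3.93, 5.17, 4.55 and 4.25 RPKM in E2+DHT, against 3.53, 3.38, 4.21 and 3.92 RPKM in E2. The 3 highest values were all from E2+DHT, and E2 replicate 3 was the one E2 library above the lowest of E2+DHT, so that the groups overlapped. The mean was 4.48 ± 0.527 RPKM in E2+DHT and 3.76 ± 0.377 RPKM in E2 (SD, n = 4 each). On the log2 scale the difference was 0.22 with a standard error of 0.094 and an interval of 0.015 to 0.43. It did not pass (unadjusted p = 0.0382, limma adjusted p = 0.999). Over the alternatives tried the limma adjusted p of TGFA was at least 0.289. Its log2 fold change was 0.16 to 0.28 without single libraries, 0.086 when the titles set the groups, and 0.31 in the 4 records without a label conflict. After equalising the summed RPKM of the libraries it was 0.15 (limma unadjusted p = 0.151). Without single libraries the unadjusted p of TGFA ran from 0.0181 to 0.119 (limma).

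BTC (betacellulin, chromosome 4, 75669969 to 75719896), a ligand of EGFR and ERBB4, had 1.16, 1.09, 1.23 and 1.25 RPKM in E2+DHT, against 1.26, 1.09, 1.33 and 1.06 RPKM in E2. The E2 values reached both below and above those of E2+DHT. The mean was 1.18 RPKM in both groups, with an SD of 0.0721 in E2+DHT and 0.133 in E2. E2+DHT over E2 was -0.0016 in log2, with an interval of -0.17 to 0.17 (limma adjusted p = 1.000).

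AREG (chromosome 4, 75310851 to 75320726) had a mean over the 8 libraries just under the minimum of 0.5 RPKM and did not enter the test. It had 0.438, 0.402, 0.405 and 0.628 RPKM in E2+DHT, against 0.723, 0.381, 0.608 and 0.415 RPKM in E2. In reads these were 25, 13, 23 and 33 in E2+DHT and 38, 16, 20 and 14 in E2, so that counting error alone is large. The treatments overlapped fully, E2 holding both the highest and the lowest value. AREGB, a near-identical copy listed as a gene of its own, is at 0 in all libraries, and reads that match both copies may have been lost or given to AREG alone.

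HBEGF (chromosome 5, 139712428 to 139726216), which binds EGFR and ERBB4, had 0.306, 0.321, 0.404 and 0.363 RPKM in E2+DHT, against 0.249, 0.247, 0.448 and 0.405 RPKM in E2. In E2, replicates 1 and 2 lay below and replicates 3 and 4 above all E2+DHT libraries. EREG (epiregulin, chromosome 4, 75230860 to 75254468) had 0.0859, 0.143, 0.132 and 0.126 RPKM in E2+DHT, against 0.0767, 0.179, 0.175 and 0.214 RPKM in E2. Replicate 1 was the lowest in both treatments, and the other 3 E2 libraries were above all of E2+DHT. These values rest on 19 to 42 reads per library for HBEGF and 14 to 26 for EREG. Without the minimum level, where 27594 genes share the adjustment and 5 of them, or 0.0181%, passed, AREG, HBEGF and EREG did not (limma adjusted p = 0.936, 0.976 and 0.920). The log2 fold change of HBEGF was 0.026 as grouped here, 0.21 when the titles set the groups and 0.24 in the 4 records without a label conflict, and none of these passed. On recovered reads, limma voom put the ratio of E2+DHT to E2 between 0.592 and 1.33 for AREG, 0.764 and 1.59 for HBEGF and 0.511 and 1.31 for EREG (95% intervals). The intervals take in a level 1.5 times higher for HBEGF and 1.5 times lower for AREG and EREG.

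ERRFI1 (chromosome 1, 8064464 to 8086368), also called MIG6, is induced by receptor signalling and blocks the kinase domain of EGFR and its relatives. It had 5.89, 7.78, 7.37 and 6.79 RPKM in E2+DHT, against 5.05, 6.24, 6.54 and 7.09 RPKM in E2. Replicate 1 was the lowest in both treatments, the reverse of ERBB2, and the groups overlapped. The mean was 6.96 ± 0.817 RPKM in E2+DHT and 6.23 ± 0.861 RPKM in E2 (SD, n = 4 each). Its log2 fold change was 0.15 with a standard error of 0.11 and an interval of -0.096 to 0.40 (limma adjusted p = 0.999). ERRFI1 and TGFA lay closer to each other over libraries (0.11) than either did to any other of the 7 tested genes, while 233 other genes lay closer to ERRFI1 than TGFA did.

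In order of level, ERBB2 was followed by ERBB3, ERRFI1, TGFA, EGFR, BTC, ERBB4, AREG, HBEGF and EREG. Each of the first 4 steps held in 8 of 8 libraries, although the range of ERRFI1 over libraries touched that of TGFA. EGFR was above BTC in 6 of 8 libraries and BTC above ERBB4 in 5 of 8, so these 3 were not set apart by their spread. AREG was above HBEGF in 8 of 8 libraries with overlapping ranges, and HBEGF was above EREG in 8 of 8 without overlap. The 5 ligands together came to 6.59 ± 0.498 RPKM in E2+DHT and 5.97 ± 0.622 RPKM in E2. TGFA made up 64.3% to 72.6% of this sum in E2+DHT and 60.5% to 65.2% in E2. With the further ligands EGF and EPGN added, the sum was 14.1 ± 0.767 RPKM in E2+DHT and 12.3 ± 1.21 RPKM in E2.

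**Figure D3:**
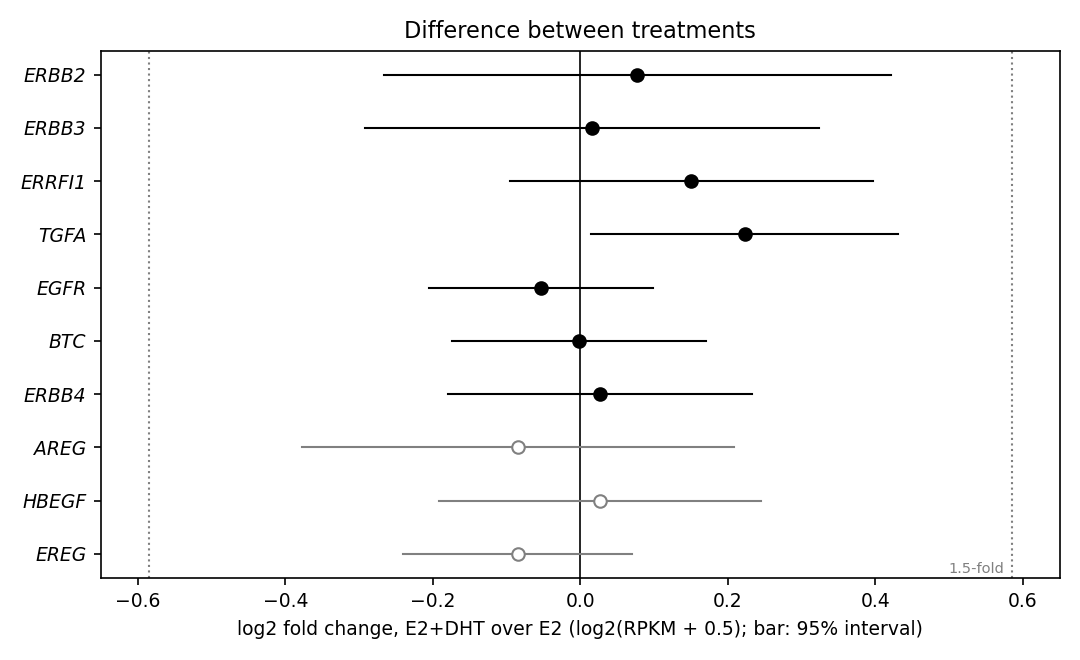
log2 fold change of E2+DHT over E2 on log2(RPKM + 0.5), with 95% intervals (limma), for the 7 tested genes (filled) and the 3 genes under the minimum level, fitted without it (open, grey). All intervals lie within 1.5-fold (dotted), and only that of TGFA, from 0.015 to 0.43, leaves out 0. The scale understates changes of the open genes, AREG, HBEGF and EREG, whose limma voom intervals on recovered reads reach past 1.5-fold.

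On this scale the intervals of the 7 tested genes run from 0.816 to 1.35 in fold, so that a change of 1.5-fold lies outside each of them. This holds only for groups taken from the library names, and the intervals may rest in part on technical spread. In the 4 records without a label conflict the standard errors were larger, 0.25 for ERBB2 and 0.23 for ERBB3, against 0.15 and 0.14 here. A change of 1.5-fold was not judged in that fit. The scale understates changes of genes near 1 RPKM, EGFR, BTC and ERBB4. For these, limma voom on recovered reads was also run without the minimum level. Its intervals were 0.821 to 1.10 for EGFR, 0.805 to 1.25 for BTC and 0.849 to 1.23 for ERBB4.

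The genes around the receptors were read from 7 further lists of 98 genes, of which 80 were tested. None passed over all genes (limma). At an unadjusted p under 0.05 there were 10 of 80, a larger share than the 4.47% of all tested genes (508 of 11375). The lists were chosen with earlier results of these data known, so the larger share cannot be read as a test. On recovered reads voom had 0 of the 80 past the threshold and 9 at an unadjusted p under 0.05. The groups did not overlap in 5 of the 80, with 2 higher and 3 lower in E2+DHT, beside 3.4% of all tested genes (1.98% higher and 1.42% lower). The median log2 fold change was 0.017, close to the 0.014 of all tested genes.

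Of 6 further ligands of the family EGF and EPGN were tested. EPGN (epigen, chromosome 4, 75174190 to 75181024), an EGFR ligand whose gene lies in a row with EREG, AREG and BTC, had 1.39, 1.97, 3.02 and 2.25 RPKM in E2+DHT, against 0.725, 1.10, 1.88 and 1.37 RPKM in E2. Replicate 1 was the lowest and replicate 3 the highest in both treatments, and the groups overlapped. The mean was 2.16 ± 0.680 RPKM in E2+DHT and 1.27 ± 0.485 RPKM in E2, a ratio of 1.70. In log2 the difference was 0.59 (standard error 0.22) with an interval of 0.11 to 1.08 (limma adjusted p = 0.909). EGF, the ligand that names the family, had 5.30 ± 0.291 RPKM in E2+DHT and 5.09 ± 0.212 RPKM in E2 (limma adjusted p = 0.999). The neuregulins NRG1 to NRG4, ligands of ERBB3 and ERBB4, were each under the minimum level.

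Of 8 tested genes of ligand release 0 passed (median log2 fold change -0.015, 0 at an unadjusted p under 0.05). ADAM15 and RHBDF1, a metalloprotease and a regulator of ADAM17, had the largest values, 0.18 and 0.17. ADAM17, the main protease that releases TGFA and AREG, averaged 2.45 ± 0.211 RPKM in E2+DHT and 2.48 ± 0.0703 RPKM in E2. Of 19 adaptor and RAS-MAPK genes 0 passed (median 0.033, 1 at an unadjusted p under 0.05). MAPK3, the kinase ERK1, had 17.4 ± 1.43 RPKM in E2+DHT and 14.8 ± 2.11 RPKM in E2 (log2 fold change 0.24, limma adjusted p = 0.999). NRAS had a log2 fold change of -0.23, with 0.422 to 0.585 RPKM in E2+DHT, 1.33 RPKM in E2 replicate 4 and 0.439 to 0.556 RPKM in the other E2 libraries.

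Among 11 PI3K-AKT genes 0 passed (median 0.0031, 1 at an unadjusted p under 0.05). AKT2 had a log2 fold change of 0.19, and PIK3R3, a regulatory subunit of PI3K, had -0.16, with 16.04 ± 0.556 RPKM in E2+DHT and 18.01 ± 1.07 RPKM in E2. Among 18 genes of receptor turnover 0 passed (median -0.0029, 1 at an unadjusted p under 0.05). LRIG1, a membrane protein that promotes the breakdown of ERBB receptors, had 6.09, 4.06, 3.55 and 4.50 RPKM in E2+DHT, against 4.36, 2.43, 3.23 and 2.85 RPKM in E2. Replicate 1 was the highest in both treatments and the groups overlapped (log2 fold change 0.44, interval 0.057 to 0.83, limma adjusted p = 0.999). HGS, an endosomal sorting protein, had a log2 fold change of 0.18.

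Of 16 tested transcripts known to be induced downstream of the receptors 0 passed (median 0.021), and 6 had an unadjusted p under 0.05, beside 4.47% of all tested genes. These 6 include genes higher and genes lower in E2+DHT. The list was chosen with earlier results of these data known, so its share cannot be read as a test. SPRED2, an inhibitor of RAS-MAPK signalling, had 3.90, 4.58, 4.01 and 4.62 RPKM in E2+DHT, against 2.82, 3.31, 3.20 and 2.98 RPKM in E2. Its groups did not overlap, and it was nearest to the threshold of the 80 genes (log2 fold change 0.42, limma adjusted p = 0.0829). SPRY1, a brake on the same relay, had 0.869, 0.799, 1.17 and 1.07 RPKM in E2+DHT, against 1.20, 1.23, 1.63 and 1.22 RPKM in E2. All 4 E2+DHT values lay below those of E2 (log2 fold change -0.30, limma adjusted p = 0.804).

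**Figure D4:**
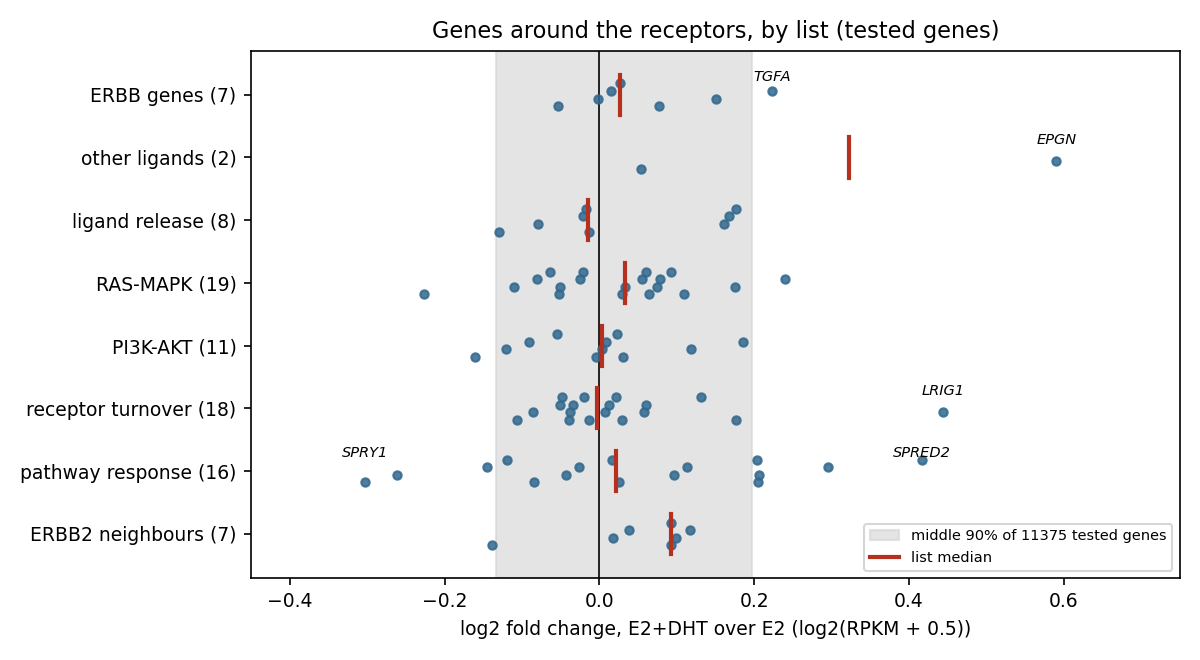
log2 fold change of E2+DHT over E2 for each tested gene, by list with the number tested, with the list's median (red) and the middle 90% of all 11375 tested genes (grey, -0.13 to 0.20). EPGN at 0.59, LRIG1 at 0.44, SPRED2 at 0.42 and SPRY1 at -0.30 lie farthest out.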

How the data were processed

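The authors deposited one table of RPKM values per gene and library (n = 4 per group). Per the submitters' processing notes the build was hg19. Not given in the sources used here are the aligner, the counting tool and how it used strand, and the annotation. RPKM values move in steps of 1 read, and whole reads were recovered for all 27594 genes above 0 (100%, tolerance 0.0001 reads) from the shortest exon length that gave whole reads, with 1 denominator per library. Per the labels' protocols the libraries were stranded total RNA.

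The genes and lists were chosen with earlier results of these data known. Values were compared as log2(RPKM + 0.5) with limma 3.58.1 in R 4.3.3 (empirical Bayes with intensity trend), for genes with a mean of at least 0.5 RPKM over the 8 libraries. Fold changes on that scale understate the change of low genes. Named genes are the 10 themselves, overlapping genes, every passing gene and the 2 largest absolute log2 fold changes of each list, GRB7, MIEN1, and the 3 genes most like ERBB2 and ERBB3, which had the largest spread over libraries; 1 gene the rule names is not reported here. ADAM17, ORMDL3, PNMT and NRG4 were named besides, after their values were seen. The test was checked on simulated data. Alternatives covered pseudocounts, filters, scalings, weights, voom, the replicate block, groupings by titles and single libraries left out. Python 3.11.15, pandas 2.3.3 and matplotlib 3.10.9 were used for tables and plots. RefSeq promoter windows are on GRCh38.p14 and gene positions on hg19, and no positions were converted.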

Additional observations from a re-analysis of the deposited data

Results flagged for a closer look

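In 34 groups of 4 libraries (the 10 genes, 3 sums or ratios of them and 4 library measures, in each treatment) 1 contained a single outlying library by Dixon's criterion at 95%. Chance alone gives about 1 such group in 20. It was AREG in E2+DHT replicate 4, at 0.628 RPKM against 0.402 to 0.438 RPKM in the other E2+DHT libraries, or 33 reads against 13 to 25.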

How the results depend on the processing

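Under every alternative 0 of the ERBB genes passed, with an adjusted p of at least 0.289 for each of them (limma). TGFA and ERRFI1 kept a positive log2 fold change throughout, between 0.086 and 0.31 and between 0.061 and 0.31. Signs of the others turned as follows, with no p past the threshold. With groups from the record titles the log2 fold change was 0.059 for EGFR, -0.051 for ERBB3, -0.14 for ERBB4, 0.045 for AREG, 0.093 for EREG and 0.058 for BTC. With the 4 records whose labels agree it was 0.0056 for EGFR, -0.035 for ERBB3, -0.12 for ERBB4, 0.0079 for EREG and 0.056 for BTC. HBEGF kept its sign and was larger in both, 0.21 with the titles (unadjusted p = 0.00812, limma adjusted p = 0.892) and 0.24 with the agreeing records (unadjusted p = 0.0234, limma adjusted p = 0.867), against 0.026. Scaling to the same RPKM sum gave -0.059 for ERBB3, -0.028 for ERBB4 and -0.0055 for HBEGF. ERBB3 was -0.0041 after median centring, with or without the replicate block, and -0.0089 after quantile normalization. BTC was 0.053 with array weights and 0.0036 with voom. Without single libraries the range was -0.053 to 0.19 for ERBB2, -0.090 to 0.13 for ERBB3, -0.029 to 0.096 for ERBB4, -0.16 to 0.0015 for AREG, -0.038 to 0.041 for BTC and -0.026 to 0.089 for HBEGF. The cause was not tested.

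Over all genes 21 passed, against 5 with no filter (27594 genes share the adjustment), 33 after median centring, 47 with array weights, 2 with groups from the titles, 0 with the 4 agreeing records (limma, 286 at an unadjusted p under 0.05, fewer samples) and 6 to 18 without single libraries. The replicate number as a block gave 72, and with median centring, added after seeing the data, 131. Deviations from the group means correlated over genes by 0.70, 0.45, 0.12 and 0.083 for numbers 1 to 4, and E2+DHT replicate 3 and E2 replicate 4 correlated better with another number than with their own. Pairing by number is not stated in the labels and did not hold for every pair, so the numbers were not taken as pairs. Under the block 2 genes of the further lists passed, EPGN (limma adjusted p = 0.00427) and SPRED2 (limma adjusted p = 0.0262), both higher in E2+DHT, and 3 with median centring as well. A minimum of 2 RPKM leaves EGFR, ERBB4, BTC and the 3 genes below 0.5 RPKM without a value, and these 3 were followed without a minimum. Depth limits AREG, HBEGF and EREG, which had 13 to 42 reads per library.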

Other observations

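Chosen after its values were seen, PNMT, the enzyme that makes adrenaline and a neighbour of ERBB2 on chromosome 17 (37824234 to 37826728), was under the minimum level. It had 13, 5, 11 and 10 reads in E2+DHT replicates 1 to 4, against 0, 3, 0 and 1 reads in E2 replicates 1 to 4. In RPKM these were 0.175 to 0.258 in E2+DHT and 0 to 0.0808 in E2, and the groups did not overlap. Without the minimum level it did not pass (limma adjusted p = 0.1, unadjusted p = 4.81e-05).

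NRG4, a ligand of ERBB4, was also singled out after its values were seen and was under the minimum level. It was lower in E2+DHT, the opposite direction to PNMT, with 0.233 to 0.287 RPKM in E2+DHT and 0.299 to 0.417 RPKM in E2. These values rest on 161 reads in all in E2+DHT and 176 in E2, totals that are not scaled for depth. Without the minimum level NRG4 did not pass (limma adjusted p = 0.920, unadjusted p = 0.0176).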
